A study of Mus musculus with 6 samples.

Results

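The genes described here build cholesterol and fatty acids, control that synthesis, or export cholesterol, and they were followed in cultured mouse cells that had been exposed to red blood cells. They were 35 gene symbols, chosen by their roles and all present among the 15528 symbols of the deposited count table. Poly(A) RNA was sequenced from cells labelled as lymphatic endothelial cells in 6 libraries, all at 24 h: 3 labelled with red blood cell treatment (RBC) and 3 controls (CON). The labels name no strain, age, sex, passage or dose, and do not say whether replicates were separate cultures, so a p-value here refers to library-to-library spread, part of which may be technical. The study's title concerns subarachnoid haemorrhage, bleeding that spills red cells around the brain, and the contrast asks how these cells' transcripts differ after contact with such cells.

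Total counts ranged from 17263359 to 18381419 per library. Of 14 lymphatic and general endothelial markers 11 are listed. Their summed level was 610.7 to 644 CPM (counts scaled to the library total) in RBC libraries and 482 to 589 CPM in CON libraries, and Nrp2, Nr2f2 and Eng carried most of it. Of these, only Nrp2 had a higher mean in RBC libraries (361 against 272 CPM in CON libraries). Nr2f2 averaged 146 and 161 CPM and Eng 99.0 and 99.3 CPM in RBC and CON libraries. No listed marker of this set was called. Many of the listed markers were near 0: Cdh5 had 11 and 7 counts over the 3 RBC and the 3 CON libraries, Pdpn 2 and 6, and Kdr 1 and 0. Sox18 had 2 and 2 counts, Tek 3 and 3, and Itga9 1 and 0. Others were present, Pecam1 with 747 and 802 counts and Flt4 with 191 and 193. Neither Prox1 nor Lyve1 is among the listed symbols, so the cell identity is taken from the label alone. The summed erythroid markers were 538 to 623 CPM in RBC libraries and 2.83 to 3.64 CPM in CON libraries. Leukocyte markers summed to 47.2 to 52.4 CPM in RBC libraries and 42.1 to 48.6 CPM in CON libraries, mostly Csf1r (24.7 and 24.98 CPM on average) and Cd68 (21.2 and 20.6 CPM). Of 4 tested leukocyte markers 2 were called higher, Ptprc with 36 counts over the RBC libraries and 0 over the CON libraries and Lyz2 with 83 and 14 (edgeR adjusted p = 0.0094 and 0.0095). Itgam, not tested, had 28 and 4 counts. Control replicate 2 stood apart: its levels ran lower the longer the gene, a trend returned to below. Results that move with it are given with and without it, also where the fold change is small. The fit without it leaves 2 controls. That library was singled out with its values known, so p-values of that fit may overstate certainty.

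Cholesterol is made from acetyl-CoA through the mevalonate pathway to squalene, which is then cyclised and trimmed to the sterol. When membranes of the endoplasmic reticulum are poor in sterol, SCAP escorts SREBP proteins to the Golgi, where they are cleaved and released to switch on these enzymes. INSIG proteins hold SCAP back when sterol is plentiful. SREBP-1 mainly drives fatty acid synthesis and SREBP-2 mainly cholesterol synthesis, while surplus sterol, sensed as oxysterol by LXR receptors, induces the exporters ABCA1 and ABCG1 and the ubiquitin ligase MYLIP, which removes lipoprotein receptors. Endothelial cells take up lipoprotein cholesterol and also make sterols themselves.

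SREBPs act at promoters together with NF-Y, which binds the CCAAT box, so the RefSeq promoter windows (250 bases before to 50 after an annotated start, build GRCm38.p6) of the members were searched on both strands. A window was found for 27 of the 35 members. The sterol element core TCACNCCAC occurred in 1 of the 27, Hmgcs1, or 3.7%, against 1.26% of the 9024 tested genes with a window. CCAAT occurred in 21 of the 27 members (77.8%), against 43.8% of those 9024 genes, and in 22 of 35 member windows (62.9%) against 38.4% of 11515 windows of tested genes. No test was made of these shares, and a match is a string of letters, not a measured binding site. The promoters below belong to Hmgcs1, the member with both motifs, to Fasn, the member with the highest count, and to Dhcr7, whose counts were among the lower ones with red blood cells. Capitals mark TCACNCCAC and CCAAT or its reverse complement ATTGG, and in Fasn a CCAAT and an ATTGG overlap.
Hmgcs1 (chr13:119690101-119690400, plus strand): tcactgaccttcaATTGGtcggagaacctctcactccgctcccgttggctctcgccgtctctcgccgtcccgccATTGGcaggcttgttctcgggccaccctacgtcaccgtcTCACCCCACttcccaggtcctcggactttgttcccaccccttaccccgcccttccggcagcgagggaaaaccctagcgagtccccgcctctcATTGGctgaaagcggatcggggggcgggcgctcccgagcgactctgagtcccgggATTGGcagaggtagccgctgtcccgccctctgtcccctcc
Fasn (chr11:120824498-120824797, minus strand): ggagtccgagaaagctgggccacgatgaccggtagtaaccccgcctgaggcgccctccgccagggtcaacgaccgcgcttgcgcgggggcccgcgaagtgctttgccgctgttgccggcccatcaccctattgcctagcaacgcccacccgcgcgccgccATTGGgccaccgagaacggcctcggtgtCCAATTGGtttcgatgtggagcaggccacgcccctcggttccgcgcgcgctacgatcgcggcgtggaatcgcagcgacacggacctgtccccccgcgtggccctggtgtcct
Dhcr7 (the 1 of its 3 windows with a CCAAT box, chr7:143829964-143830263, plus strand): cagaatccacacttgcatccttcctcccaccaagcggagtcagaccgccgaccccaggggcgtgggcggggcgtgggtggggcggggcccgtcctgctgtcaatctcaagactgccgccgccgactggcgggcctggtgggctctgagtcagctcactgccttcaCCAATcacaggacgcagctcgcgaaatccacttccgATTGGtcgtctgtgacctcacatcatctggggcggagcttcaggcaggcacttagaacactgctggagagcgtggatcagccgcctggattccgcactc

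No gene of cholesterol synthesis, fatty acid synthesis or efflux passed edgeR's test of RBC against CON on all 6 libraries. Of the 35 members 33 had enough counts to be tested, and 0 were called at an adjusted p under 0.05 in edgeR's quasi-likelihood test, while 164 of 11208 genes (1.46%) were called in all. DESeq2 and limma voom also called 0 members, but voom with library quality weights, described below, called 4 on the same 6 libraries. At an unadjusted p under 0.05 there were 5 members, or 15.2% of 33, against 9.99% of all genes tested: Fdft1, Dhcr7, Acaca, Fads1 and Abcg1. The median log2 fold change of the 33, RBC over CON, was -0.02, against 0.00 over all genes tested, with 14 positive and 19 negative values that ran from -0.17 to 0.45 (median -0.03 and 13 positive without control replicate 2). In 29 members (87.9%) the 95% interval of the fold change lay within 1.3-fold either way, which held for 70.8% of all genes tested, many of which have fewer counts. The other 4 were Acaca, Fasn, Abcg1 and Mylip. In 10 members (30.3%) the 3 RBC and 3 CON libraries did not overlap in CPM, against 19.6% of all genes tested. In Mvd, Acly, Acaca, Fasn, Fads1 and Abcg1 the RBC libraries were all above the CON libraries, and in Fdft1, Sqle, Dhcr7 and Insig1 they were all below.

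**Figure D1:**
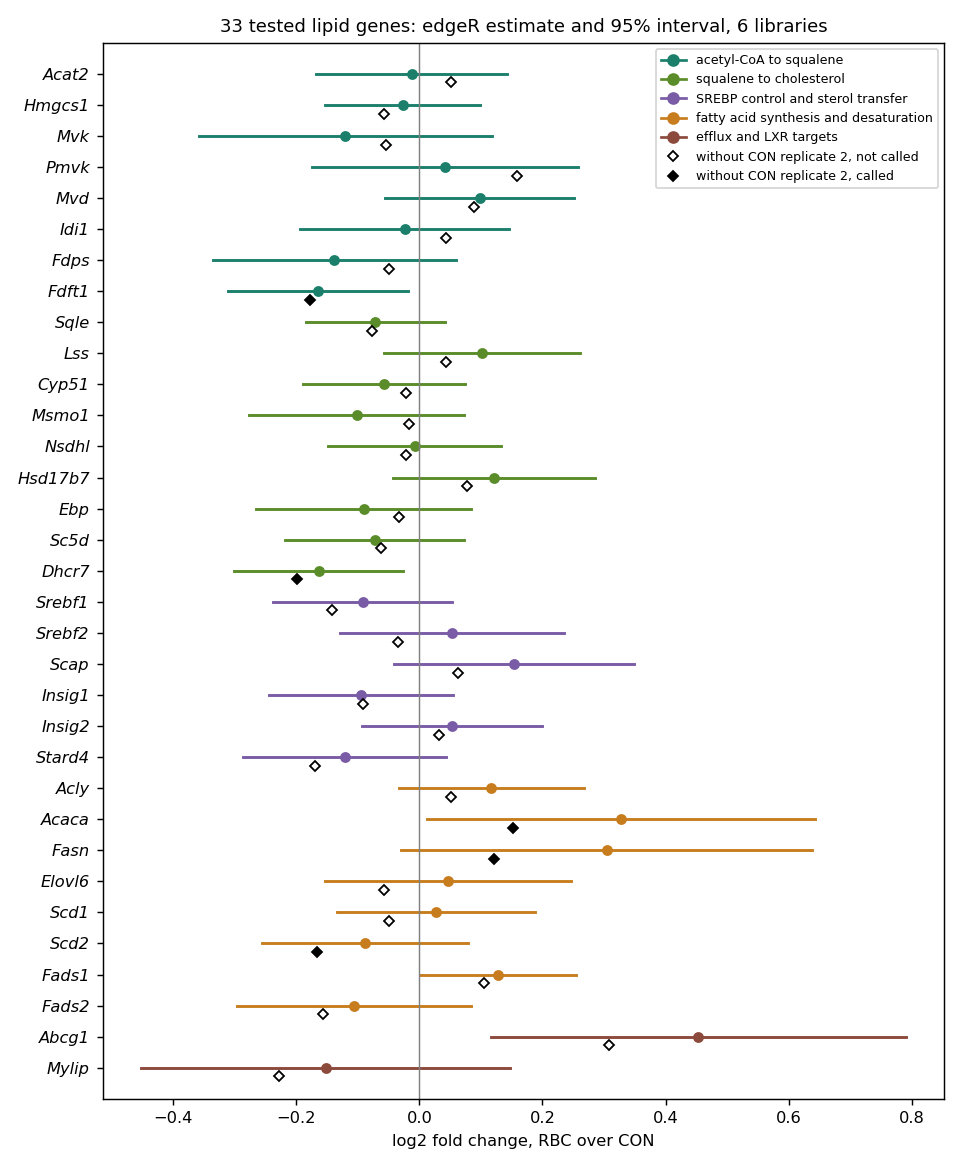
Log2 fold change, RBC over CON (x axis), of the 33 tested members (rows), coloured by role, with the edgeR estimate and its 95% interval from 6 libraries. Diamonds give the estimate without control replicate 2, filled for Fdft1, Dhcr7, Acaca, Fasn and Scd2, which were called in that fit.

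Transcripts of both branches were present in both groups. Per length, the highest members were the desaturase Scd2 with 149.8 ± 2.10 FPKM (fragments per kilobase of gene model, scaled to the library total; SD, n = 3) in RBC libraries and 159 ± 15.2 FPKM in CON libraries, and fatty acid synthase Fasn with 139 ± 3.32 and 113 ± 26.3 FPKM. Scd2 was above Fasn in each of the 6 libraries. Squalene epoxidase Sqle followed with 78.2 ± 0.91 FPKM in RBC libraries and 82.3 ± 1.40 FPKM in CON libraries, then Fdps with 52.8 ± 3.53 and 58.1 ± 6.25 FPKM. These 4 were followed by Scd1 and Elovl6 in both groups. At the low end lay the efflux genes, with 2.02 ± 0.22 FPKM of Mylip in RBC libraries and 2.25 ± 0.29 FPKM in CON libraries, and 1.32 ± 0.05 and 0.96 ± 0.20 FPKM of Abcg1. Tm7sf2 and Abca1 were lower still, under 1 FPKM in every library. Of the sterol carriers and regulators Srebf2 was the highest with 35.2 ± 1.10 FPKM in RBC libraries and 33.97 ± 3.69 FPKM in CON libraries, against 11.8 ± 0.33 and 12.6 ± 0.78 FPKM of Srebf1.

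**Figure D2:**
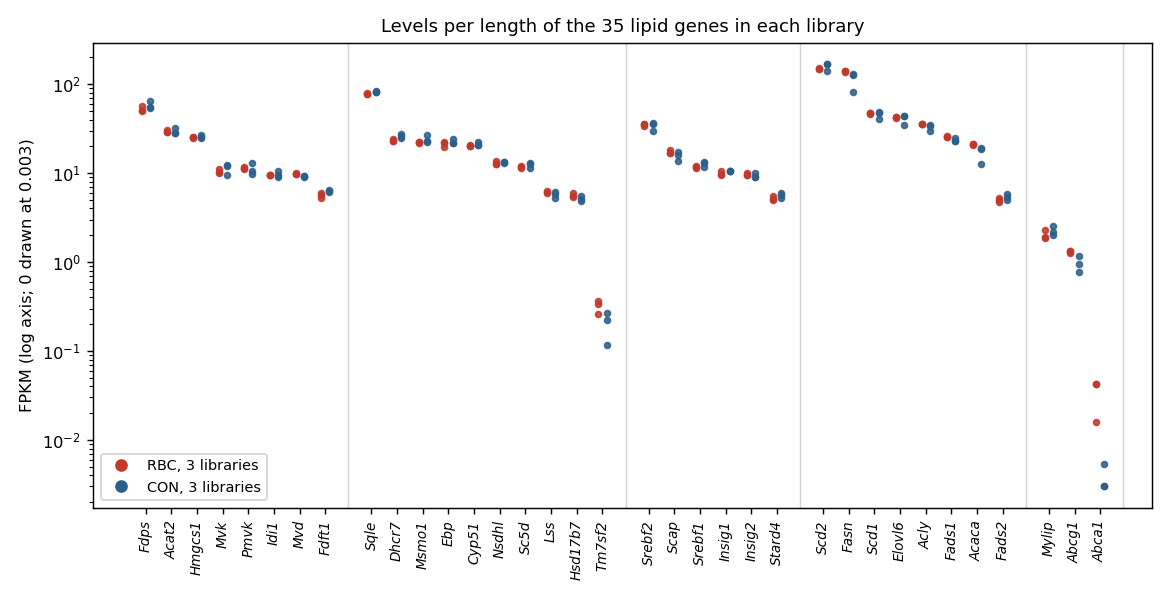
FPKM per library (y axis, log scale) of the 35 members, ordered by role and by level, with 3 RBC points left of 3 CON points for each gene. The groups lie close together in nearly all members, from Scd2 and Fasn above 80 FPKM down to Abca1, whose RBC points lie above its CON points near 0.

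The steps from acetyl-CoA to squalene showed 0 of 8 calls, a median log2 fold change of -0.03 and 2 positive values. Without control replicate 2 there were 4 positive values and a median of 0.00. Hmgcs1, which makes HMG-CoA, had 101, 100.5 and 102 CPM in RBC libraries, against 108, 99.0 and 103 CPM in CON libraries. These values overlap, and the log2 fold change was -0.03 with a 95% interval from -0.15 to 0.10 (-0.06 without control replicate 2). Acat2, the acetyl-CoA thiolase, whose reads its near-identical paralogue Acat3 can share (-0.01), Idi1, the isopentenyl diphosphate isomerase (-0.02), and Pmvk, the phosphomevalonate kinase (0.04), lay as near to 0 on the log2 scale. They were at 0.05, 0.04 and 0.16 without control replicate 2, none called. Mevalonate kinase Mvk was at -0.12 (-0.05 without control replicate 2), with 17.7, 19.6 and 18.5 CPM in RBC libraries and 17.1, 22.0 and 21.5 CPM in CON libraries. The mevalonate diphosphate decarboxylase Mvd had 17.6, 17.2 and 17.3 CPM in RBC libraries, against 16.3, 16.1 and 16.3 CPM in CON libraries, a gap without overlap but of 1.07-fold (edgeR adjusted p = 0.65). Farnesyl diphosphate synthase Fdps had 75.7, 72.8 and 82.9 CPM in RBC libraries and 77.9, 95.3 and 81.6 CPM in CON libraries, the highest value being that of control replicate 2. Its log2 fold change was -0.14, and -0.05 without that library.

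Fdft1, squalene synthase and the first enzyme committed to sterols, had the lowest log2 fold change of this stretch. It had 47.3, 45.3 and 41.8 CPM in RBC libraries, against 49.7, 49.6 and 51.6 CPM in CON libraries. All 3 RBC libraries lay below all controls, with a log2 fold change of -0.17 ± 0.06 (SE; edgeR adjusted p = 0.43). In the GENCODE M21 annotation an exon of Fdft1 overlaps an exon of Ctsb on the other strand by 774 bases, and the strand setting of the counting is unknown here. The same holds for 6 further members, Cyp51, Hmgcs1, Idi1, Lss, Scap and Srebf1, with shorter overlaps. On the same strand, exons of Fdps overlap Gm43738 by 197 bases, of Scd2 Mir5114 by 61 and of Tm7sf2 Vps51 by 14. What these overlaps add to the counts was not tested. Ctsb, the lysosomal protease cathepsin B, had 586 ± 16.04 CPM in RBC libraries and 609 ± 17.2 CPM in CON libraries, and its part in the Fdft1 counts was not tested.

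From squalene to cholesterol 0 of 9 tested genes were called, with 2 positive and 7 negative values and a median of -0.07. The median was -0.02 without control replicate 2, with the same counts of each sign, and -0.03 with the library weights described below. All 9 intervals lay within 1.3-fold either way. Sqle, which opens this stretch and is one of its slow steps, had 213, 218 and 214 CPM in RBC libraries, against 223, 225 and 230.4 CPM in CON libraries. The groups did not overlap, yet the difference was 0.95-fold (log2 -0.07, 95% interval -0.18 to 0.04). The sterol cyclase Lss was at 0.10, the demethylase Cyp51 at -0.06, the methyl oxidase Msmo1 at -0.10 and the dehydrogenase Nsdhl at -0.01 on the log2 scale. The reductase Hsd17b7 was at 0.12, the isomerase Ebp at -0.09 and the desaturase Sc5d at -0.07, all with overlapping libraries. In the fit without control replicate 2 Lss was at 0.04, Cyp51 at -0.02, Msmo1 at -0.02, Nsdhl at -0.02, Hsd17b7 at 0.08, Ebp at -0.03 and Sc5d at -0.06, none called. Tm7sf2, a sterol reductase, had too few counts to be tested, 26 over the RBC libraries and 16 over the CON libraries. Their ratio was 1.6 with an exact (Clopper-Pearson) 95% interval from 0.826 to 3.19, which covers counting error only.

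Dhcr7, which reduces 7-dehydrocholesterol to cholesterol in the last step, had the smallest unadjusted p of the sterol enzymes. It had 105, 100.3 and 98.1 CPM in RBC libraries, against 119, 108 and 114 CPM in CON libraries. Every RBC library lay below every control, with a log2 fold change of -0.16 ± 0.06 (SE; edgeR unadjusted p = 0.025, adjusted p = 0.39). Without control replicate 2 the log2 fold change was -0.20 (95% interval -0.28 to -0.12) and the gene was called lower (edgeR adjusted p = 0.00036). Summed over the 10 genes of this stretch, levels were 203, 203 and 201 FPKM in RBC libraries and 210.4, 216 and 212 FPKM in CON libraries. Sqle makes up the largest share of that sum.

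Regulators of the pathway did not pass the test, with 0 of 6 called and log2 fold changes from -0.12 to 0.15. The SREBP-2 gene Srebf2, itself an SREBP target, had 199.999, 191 and 203 CPM in RBC libraries and 199, 167 and 206 CPM in CON libraries. The SREBP-1 gene Srebf1 had 59.6, 57.6 and 56.4 CPM in RBC libraries and 64.8, 57.4 and 62.9 CPM in CON libraries. Both overlap, with log2 fold changes of 0.05 and -0.09. Srebf1 overlaps through control replicate 2 alone, and without it was at -0.14 (edgeR adjusted p = 0.060), while Srebf2 was at -0.03. The counts do not tell the Srebf1 isoforms apart. Scap was at 0.15 and Insig2 at 0.05, and the sterol transfer protein Stard4 at -0.12. These were at 0.06, 0.03 and -0.17 without control replicate 2. Insig1, a sensitive SREBP target, had 26.1, 24.99 and 27.8 CPM in RBC libraries, against 27.98, 28.3 and 28.1 CPM in CON libraries. The RBC values lay below the controls, by 0.94-fold (log2 -0.09, 95% interval -0.24 to 0.05).

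Fatty acid genes had 6 positive and 2 negative values among 8, a median of 0.08 and 0 calls. Without control replicate 2 there were 4 positive values and a median of 0.00, as for the steps to squalene. Acetyl-CoA carboxylase Acaca, which makes malonyl-CoA in the rate-limiting step, had 214, 222 and 219 CPM in RBC libraries, against 199, 129.8 and 194 CPM in CON libraries. Fatty acid synthase Fasn, which builds palmitate from it, had 1476, 1412 and 1467 CPM in RBC libraries, against 1308, 861 and 1360.1 CPM in CON libraries. In both genes all RBC libraries lay above the controls, and control replicate 2 was far below the other controls. The log2 fold changes were 0.33 ± 0.14 for Acaca (SE; edgeR adjusted p = 0.48) and 0.30 ± 0.15 for Fasn (adjusted p = 0.55). Without control replicate 2 they were 0.15 (95% interval 0.08 to 0.22) and 0.12 (0.06 to 0.18), smaller, and both genes were called higher (edgeR adjusted p = 0.0014 and 0.0028). The citrate lyase Acly, which supplies acetyl-CoA to both branches, had 283, 279 and 276 CPM in RBC libraries, against 271, 234 and 269 CPM in CON libraries, also without overlap (log2 fold change 0.12, and 0.05 without control replicate 2).

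The desaturases did not share one direction. Scd2, which puts the first double bond into saturated chains, had 809, 811 and 829.8 CPM in RBC libraries, against 911, 774 and 923 CPM in CON libraries. Control replicate 2 was the lowest of the 6 libraries and the other controls were the highest, so the groups overlap through it, with a log2 fold change of -0.09. Without that library it was -0.17 (95% interval -0.23 to -0.11) and Scd2 was called lower (edgeR adjusted p = 1.9e-05). Its paralogue Scd1 had 226, 227 and 222 CPM in RBC libraries and 234, 198 and 231 CPM in CON libraries (0.03, and -0.05 without control replicate 2). Reads of the 2 paralogues can be shared, so the split between them is uncertain. The delta-5 desaturase Fads1 had 88.3, 89.4 and 88.7 CPM in RBC libraries, against 85.04, 78.9 and 80.2 CPM in CON libraries, all RBC values above the controls (log2 fold change 0.13 ± 0.06 SE, edgeR adjusted p = 0.50). The delta-6 desaturase Fads2, which acts before it, was at -0.11 and the elongase Elovl6, which lengthens palmitate, at 0.05, with overlapping libraries. Both were negative, at -0.16 and -0.06, without control replicate 2.

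Ratios of FPKM within a library were taken for 5 pairs, chosen with the values known. No share over other gene pairs was computed, so how many pairs lay apart is not a result. The FPKM of Fasn over that of Scd2 was 0.953, 0.91 and 0.924 in RBC libraries, against 0.75, 0.581 and 0.77 in CON libraries. The value of 0.581 was that of control replicate 2. Fads1 over Fads2 was 5.14, 5.41 and 4.91 in RBC libraries, against 4.24, 4.55 and 4.34 in CON libraries. Scd2 over Scd1 was 3.17 to 3.32 in RBC libraries and 3.45 to 3.54 in CON libraries, and Srebf2 over Srebf1 2.89 to 3.14 and 2.54 to 2.86. Insig2 over Insig1 overlapped, with 0.896 to 1.07 in RBC libraries and 0.85 to 0.947 in CON libraries. With 3 libraries against 3 a two-sided exact permutation test cannot reach 0.05, and none was made.

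**Figure D3:**
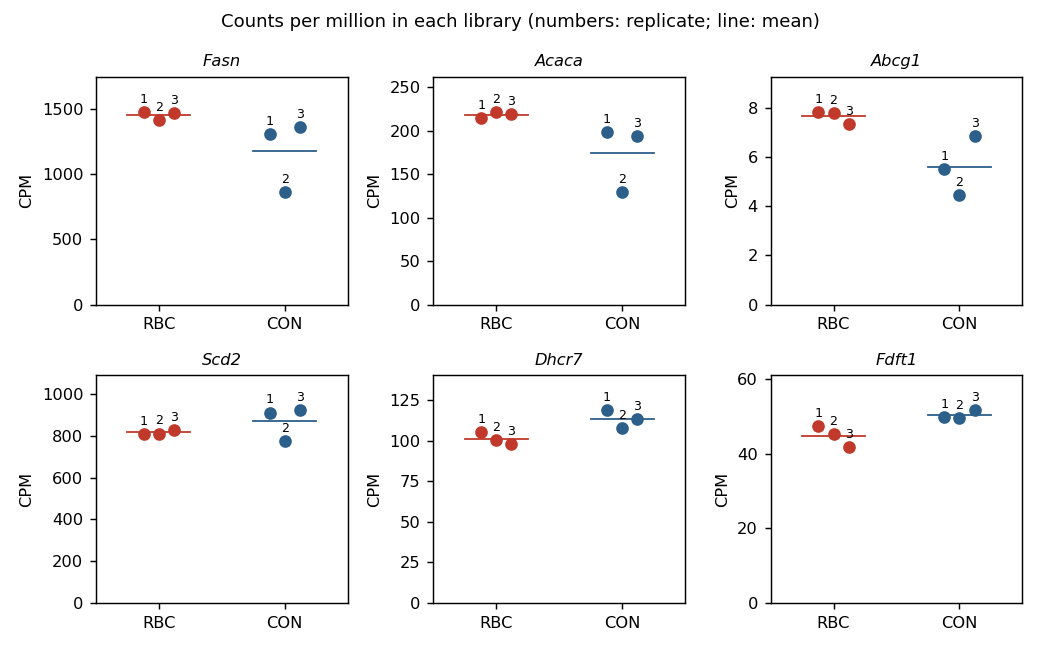
CPM in each library (y axis from 0) of 6 members, with RBC left and CON right, points numbered by replicate and a line at the mean. In Fasn and Acaca control replicate 2 lies at 861 and 129.8 CPM, well under the other controls, while in Fdft1 and Dhcr7 all 3 controls lie above the RBC libraries.

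Cholesterol export genes were scarce. Abcg1, which passes cholesterol to lipoprotein particles, had 7.83, 7.80 and 7.33 CPM in RBC libraries, against 5.50, 4.46 and 6.84 CPM in CON libraries. The RBC libraries all lay above the controls, and the log2 fold change of 0.45 ± 0.15 (SE) was the largest among the tested members, but it was not called (edgeR unadjusted p = 0.014, adjusted p = 0.32) and was 0.31 without control replicate 2 (adjusted p = 0.15). Mylip, another LXR target, had 6.83, 5.73 and 5.61 CPM in RBC libraries and 7.70, 6.04 and 6.502 CPM in CON libraries, with overlap (log2 fold change -0.15, and -0.23 without control replicate 2). Abca1, which loads cholesterol on apolipoprotein, was too low to be tested. It had 8, 3 and 8 counts in RBC libraries, against 0, 0 and 1 in CON libraries, a ratio of 18.7 with an exact 95% interval from 2.97 to 777 for counting error. With no low-count filter its edgeR adjusted p was 0.12. The leukocyte marker Ptprc had 36 counts over the same RBC libraries and 0 over the CON libraries, and the part of other cells in the Abca1 counts was not tested. In bulk RNA, more cells that carry a transcript and more transcript per cell cannot be told apart.

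The 5 members called without control replicate 2 were 2 higher (Acaca, Fasn) and 3 lower (Scd2, Dhcr7, Fdft1), 15.2% of 33, against 7.96% of the 11297 genes tested in that fit. Voom with library quality weights keeps all 6 libraries but gives less weight to deviating ones. It called 4 of the 33 tested members (the same 5 without Fasn), against 651 of 11208 genes (5.81%). The 2 fits share libraries, so they are not separate support for these calls. Leaving out any other library gave 0 called members. With an offset for each library's trend with gene length 0 members were called, and the smallest adjusted p was that of Dhcr7 (edgeR adjusted p = 0.082). There the log2 fold changes of Acaca and Fasn were 0.25 and 0.23.

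Control replicate 2 departed from the other controls with gene length. Over all 11208 tested genes the log2 CPM of that library minus the mean of control replicates 1 and 3 had a median of 0.28 in the shortest of 10 length bins and -0.34 in the longest. For these bins a small constant was added to CPM before the log, and for the member values below none was. Among the 33 tested members the departure ran from 0.33 in Pmvk to -0.63 in Fasn, and Pearson's r with log10 length was -0.74 (Spearman's rho -0.71, across genes, which are not independent replicates). Fasn and Acaca, with gene models of 10434 and 10368 bases the longest of the tested members, lay at -0.63 and -0.60, below the median of the longest bin. All 8 fatty acid genes, of median length 5702 bases, lay below both other controls in that library. Of the 8 genes from acetyl-CoA to squalene, of median length 2472 bases, 3 lay below both and 5 above both. The part of this trend in the higher values of Acaca and Fasn was not tested beyond the fits given above.

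**Figure D4:**
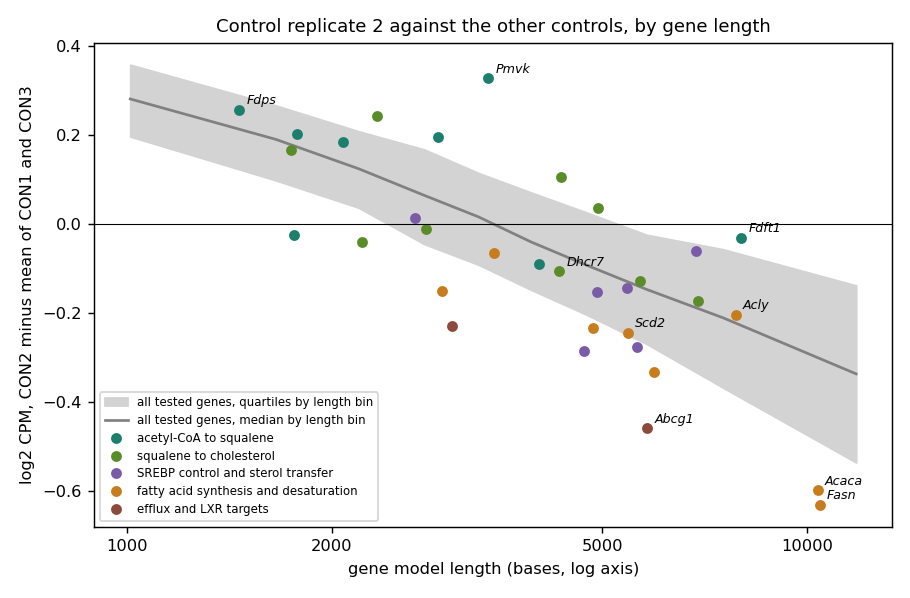
Log2 CPM of control replicate 2 minus the mean of control replicates 1 and 3 (y axis) against gene model length in bases (x axis, log scale), for the 33 tested members by role, over the median and quartiles of all 11208 tested genes in 10 bins of length. A small constant was added to CPM before the log for the bins, but not for the member points. Points drop with length, with Acaca and Fasn near -0.6 at the lower right.

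Other genes of lipid metabolism also gave no calls in edgeR's test on all 6 libraries. Of 79 further genes in 5 lists 76 are listed and 69 were tested. The test called 0 of them, with 23 positive (33.3%, against 49% of all genes tested) and 46 negative log2 fold changes. The median was -0.04 (-0.02 without control replicate 2), and 8 (11.6%, against 9.99% of all genes) had an unadjusted p under 0.05. DESeq2 and limma voom called 0 as well, while voom with library weights called 1, Acsl4 (higher). The genes of smallest p per list included Acsl4, which activates polyunsaturated fatty acids, with 241 ± 13.1 CPM in RBC libraries and 209 ± 6.87 CPM in CON libraries (SD, n = 3; log2 fold change 0.21, edgeR adjusted p = 0.23). Pgrmc1, a membrane partner of sterol-metabolising cytochromes P450, had 334 ± 5.48 and 384 ± 40.7 CPM, and Soat1, which esterifies cholesterol for storage, 114 ± 0.93 and 125 ± 2.21 CPM in RBC and CON libraries. Agpat2, an acyltransferase of triglyceride synthesis, had 16.7 ± 1.05 CPM in RBC libraries and 19.4 ± 0.91 CPM in CON libraries. Without control replicate 2 there were 4 calls among the 69 (5.8%, against 7.96% of all genes in that fit), Acsl4 higher and Me1, Pgrmc1 and Soat1 lower. The log2 fold change of Pgrmc1 was -0.11 in that fit, against -0.20 with all 6 libraries. Me1, the malic enzyme that supplies NADPH, had 132 ± 5.12 CPM in RBC libraries and 146 ± 4.07 CPM in CON libraries. The further genes of smallest p were Syvn1, Erlin2, Srd5a3, Tmem97, Gramd1b, Nceh1, Hacd2, Dgat1 and Agpat1, with log2 fold changes from -0.14 in Hacd2 to 0.25 in Gramd1b. Without control replicate 2 these ran from -0.18 in Syvn1 to 0.16 in Srd5a3, with Gramd1b at 0.15.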

How the data were processed

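The library kit was a stranded poly(A) kit, per the labels' protocols, and the submitters' processing notes name build GRCm39. Which aligner, counter, strand setting and annotation were used is not given in the sources used here. The authors deposited whole-number counts per gene without normalization, and FPKM values that equal counts scaled by library total and gene length (largest relative departure 4.2e-08), so the tables are no independent check of each other. Gene length was computed from both.

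The count test was run in edgeR 4.0.16 (R 4.3.3). There filterByExpr (minimum count 10, minimum total 15) kept 11208 genes with 99.96% of counts, libraries were scaled by TMM, and two-sided p-values came from glmQLFit with glmQLFTest, with Benjamini-Hochberg adjustment over all tested genes. Called means an adjusted p under 0.05. CPM use library totals of 17263359 to 18381419 counts; tested members averaged 115 to 23588 counts per library. Intervals of fold changes are from the standard error of the same fit. FPKM were tested with limma 3.58.1 on log2(FPKM + 1), keeping genes whose mean reached 1 FPKM in RBC or CON libraries.

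Alternatives were RLE or no scaling, DESeq2 1.42.0, voom with and without library weights, other filters, a replicate block, a length offset, leaving out each library, and for FPKM another pseudocount and no filter. The pipeline was tested on simulated data. The members and lists were chosen with earlier results of these data known. All members are described; beyond them the text names called pathway genes and the 3 of smallest p per list, of which 1 gene is not reported here. Promoter sequences are from RefSeq (GRCm38.p6).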

Additional observations from a re-analysis of the deposited data

How the results depend on the processing

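As in the fit reported, 0 members were called under each alternative except voom with library weights (4) and leaving out control replicate 2 (5), so over the left-out libraries the count ran from 0 to 5. The count of all called genes was 164 (130 higher, 34 lower) and became 651 with library weights, 339 with the length offset (217 higher, 122 lower) and 62 to 899 with a library left out (899 without control replicate 2; 72, 62 and 79 without RBC replicate 1, 2 and 3). Called pathway genes numbered 0, with 1 under library weights and 0 to 4 with a library left out (4 without control replicate 2). On FPKM 131 of 9976 genes and 0 of 33 members were called, with 49 to 423 genes when a library was left out, and 2 members (Dhcr7 and Scd2) without control replicate 2. The cause of these moves was not tested.

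Of the members' log2 fold changes some near 0 changed sign, none of them called: with library weights Acat2 (0.042), Idi1 (0.043), Srebf2 (-0.024), Elovl6 (-0.045) and Scd1 (-0.039), and with the length offset Acat2 (0.031), Nsdhl (0.029) and Insig2 (-0.010). With a library left out Acat2 ran from -0.050 to 0.051, Idi1 from -0.073 to 0.044, Srebf2 from -0.034 to 0.11, Elovl6 from -0.057 to 0.11, Scd1 from -0.049 to 0.069, Nsdhl from -0.040 to 0.010, Hmgcs1 from -0.057 to 0.0019 and Pmvk from -0.039 to 0.16. No pairing by replicate number was seen (correlations of same-numbered libraries' deviations from their group means -0.01, 0.04 and 0.06). The labels state no pairing, and with 3 libraries per group one could be missed. With the replicate block 126 genes and 0 members were called, 0 pathway genes, and 97 genes on FPKM. Depth limits Tm7sf2 and Abca1, which passed the low-count filter in no fit with it and were not called without it (edgeR adjusted p = 0.12 for Abca1 and 0.69 for Tm7sf2).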
